A study of Mus musculus with 6 samples.

Results

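The genes of sarcoplasmic reticulum calcium cycling examined here were the calcium pump Atp2a2, its small inhibitors Pln and Sln, the release channel Ryr2, the junctional proteins Trdn and Jph2, the luminal calcium binding proteins Casq1, Casq2 and Hrc, and the sodium-calcium exchanger Slc8a1. These 10 genes were taken by name from a deposited table of 23290 entries, and each had 1 entry, found through its RefSeq transcript identifiers. RNA had been sequenced from whole mouse hearts at E10.5, midgestation, on a C57BL/6 background, each heart extracted on its own, with 3 hearts in each group. Control embryos, titled wild-type, were Nkx2-5+/+,Casz1f/+, so they carried 1 floxed allele of the zinc finger gene Casz1 and no Cre recombinase. Mutant embryos were Nkx2-5Cre/+,Casz1f/f, with both Casz1 alleles floxed and Cre at 1 allele of Nkx2-5, a homeobox gene of heart progenitors. Every heart therefore held at least 1 floxed Casz1 allele. The groups differ in their Casz1 alleles, in Cre and in 1 allele of Nkx2-5 at once, and these cannot be told apart here. Deletion is limited to cells with a history of Cre from the Nkx2-5 locus, and other cells of the heart keep Casz1.

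The sarcoplasmic reticulum is the calcium store of muscle cells. In each beat, calcium that enters through the plasma membrane opens ryanodine receptors, stored calcium leaves through them and the filaments contract. The SERCA pump then returns calcium to the store, held back by phospholamban until that inhibitor is phosphorylated, and the sodium-calcium exchanger carries the rest out of the cell. In embryonic myocardium the store is small and its proteins are still accumulating, and the exchanger already works.

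The table holds 1 FPKM value per genotype, pooled by the authors over 3 hearts, and no value per heart. FPKM counts fragments per length of transcript and per mapped fragments of the library, so levels of different genes can be set side by side. The spread between hearts and the depth of each library are unknown here. A gene is called where the authors' q, their p adjusted over all tested entries, is under 0.05. Each log2 fold change is given with the standard error (SE) that its deposited test statistic implies, which is not a measured spread between hearts. Over 12150 tested entries of at least 1 FPKM the median SE was 0.317, against a median absolute log2 fold change of 0.0865. A typical change was thus small beside its SE, and a gene without a call may still have changed. The hearts carried the transcripts of cardiac muscle, with the troponin gene Tnnt2 at 1975 FPKM in the control pool and 1974 FPKM in the mutant pool. Casz1 itself stood at 6.61 FPKM in the control pool and 4.68 FPKM in the mutant pool, and was not called. Its log2 fold change was -0.50 (SE 0.306, and an unadjusted p of 0.104 in the authors' deposited table). Nkx2-5 stood at 143.0 and 82.9 FPKM (unadjusted p = 0.00755, q = 0.536 in the authors' deposited table) and was not called either. The Casz1 value covers the whole gene model and the floxed exons are not named in the labels, so it checks the deletion only in part.

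Of the calcium cycling genes, 1 fell in the mutant hearts, Pln. None rose, 8 others were tested and not called, and Slc8a1 had no usable test. By the authors' q, 0.422% of 15387 tested entries were called, 0.117% as lower and 0.305% as higher. The calsequestrin genes Casq1 and Casq2 had lower values in the mutants by a similar factor and missed the threshold, with q = 0.153 and q = 0.0853. Pln, Casq1 and Casq2 were the 3 genes with an unadjusted p under 0.05, all lower, and 0 genes had one in the other direction. Over all tested entries those shares were 1.18% lower and 1.99% higher. The other 6 tested genes had log2 fold changes between -0.35 and 0.29. Across all 9 the median was -0.20, with 6 below 0 and 3 above. Over 15301 tested entries with a finite fold the median was -0.02, and 54.7% lay below 0.

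**Figure D1:**
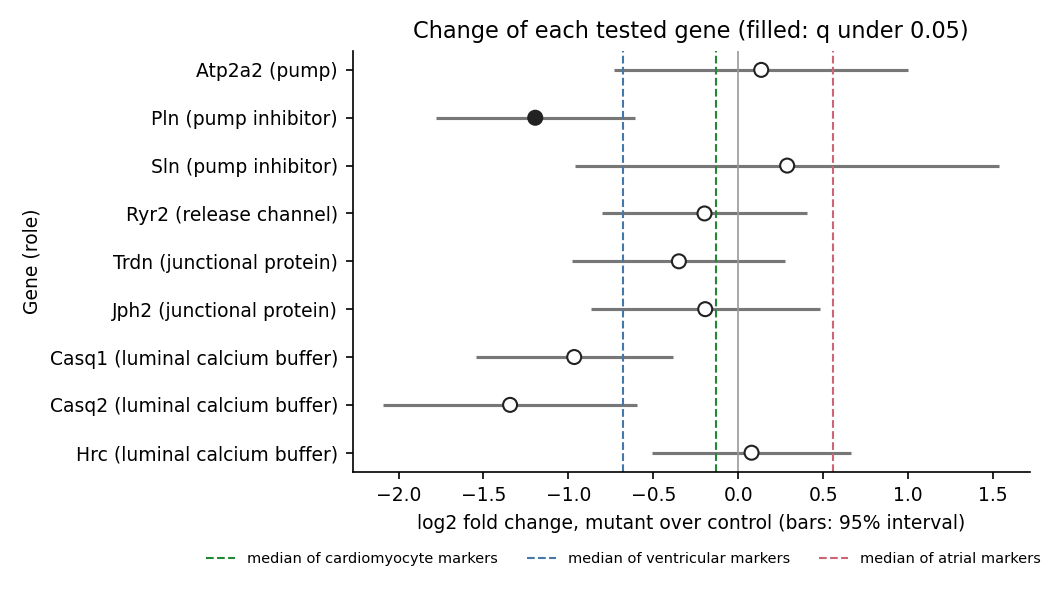
The log2 fold change (mutant over control, horizontal axis) of the 9 tested calcium cycling genes, with 95% intervals from the implied SE as bars. The filled point is Pln at -1.20; Casq1 and Casq2 also have intervals that end below 0, and the dashed lines are the medians of the cardiomyocyte (-0.13), ventricular (-0.68) and atrial (0.56) marker lists.

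The bases just upstream of the 3 genes with the lowest mutant to control ratios are shown first. The 3 were picked by these ratios, and only Pln among them was called. RefSeq promoter windows (build GRCm38.p6) run from 250 bases before to 50 bases after the start site and exist for 7 of the genes; Atp2a2, Sln and Trdn are not among them. The 250 upstream bases are printed 5′ to 3′ on the strand of the gene, with capitals for matches on either strand to GATAA (the core bound by GATA factors), AAGTG (a core of NKX2-5 sites), CANNTG (the E-box), TATAAA and the MEF2 site.
Pln, chr10:53337436-53337685, plus strand: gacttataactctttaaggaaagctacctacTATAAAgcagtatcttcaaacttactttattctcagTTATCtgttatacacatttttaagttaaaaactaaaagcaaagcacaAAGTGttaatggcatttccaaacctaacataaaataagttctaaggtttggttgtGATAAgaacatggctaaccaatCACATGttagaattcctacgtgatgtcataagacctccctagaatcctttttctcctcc
Casq2, chr3:102086165-102086414, plus strand: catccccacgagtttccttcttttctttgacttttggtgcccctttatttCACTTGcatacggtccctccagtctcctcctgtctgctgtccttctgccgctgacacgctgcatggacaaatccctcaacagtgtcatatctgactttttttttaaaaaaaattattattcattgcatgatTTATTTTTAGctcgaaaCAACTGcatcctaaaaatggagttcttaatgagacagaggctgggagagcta
Casq1, chr1:172219896-172220145, minus strand: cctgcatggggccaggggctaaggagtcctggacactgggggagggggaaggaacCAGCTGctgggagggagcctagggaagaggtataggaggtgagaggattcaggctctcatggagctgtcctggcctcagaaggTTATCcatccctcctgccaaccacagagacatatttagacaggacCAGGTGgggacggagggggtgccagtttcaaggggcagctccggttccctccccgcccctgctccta

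The windows were searched only for set short motifs, each given beside its share of all windows, and were not compared in any other way. The E-box was found in all 7 windows and in 72.3% of the 32851 windows of all genes. Both of the GATAA matches of Pln lie upstream, from base -183 to -179 and from base -81 to -77, and Casq1 has 1, from -112 to -108. GATAA was found in 4 of the 7 windows, also those of Hrc and Slc8a1, and in 25.4% of all windows. AAGTG was found in Pln from -136 to -132, in Jph2, and in Casq2, where it lies inside an E-box, and in 46.4% of all windows. The MEF2 site was found in 1 window, that of Casq2, from -69 to -60, and in 3.19% of all windows, and TATAAA in that of Pln alone and in 13.6% of all. The CATTCC motif and the CArG box were found in 0 of the 7 windows, against 14.7% and 1.63% of all. Binding of these factors was not analysed here, and a match is only a run of letters.

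The pump kept the highest level of the set in both genotypes while its main inhibitor fell. Atp2a2 encodes SERCA2, which moves calcium from the cytosol into the store. It stood at 345.6 FPKM in the control pool and 379.6 FPKM in the mutant pool, a level above 98.4% and 98.5% of tested entries. Its log2 fold change was 0.14 (SE 0.442, q = 1.00 in the authors' deposited table), with a 95% interval from a 0.602-fold to a 2.00-fold level. The gene lies on chromosome 5 from 122453513 to 122502225 in mm10.

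Pln encodes phospholamban, the membrane peptide that lowers the affinity of SERCA2 for calcium. It stood at 128.8 FPKM in the control pool and 56.2 FPKM in the mutant pool, so by level it was number 3 of the calcium cycling genes in controls and number 5 in mutants. In the authors' deposited table it fell to 0.437 of its control level, a log2 fold change of -1.20 with an SE of 0.298 (95% interval -1.78 to -0.61, q = 0.0193). By unadjusted p it was number 49 of 15387 tested entries. Its change was the smallest in size among all called entries with a finite fold. The deposited entry spans chromosome 10 from 53278081 to 53379851, far more than the gene, which RefSeq places from 53337686 to 53345999. The span is that of Cep85l, a gene on the opposite strand that contains Pln, and the labels do not say whether the libraries kept strand. Cep85l itself had 0.729 FPKM in controls and 0.732 FPKM in mutants, low beside Pln, though the SE of its log2 fold change was 2.67.

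Sln encodes sarcolipin, a second small inhibitor of the pump that is typical of atrial and some skeletal muscle. It was barely expressed, at 1.75 FPKM in the control pool and 2.13 FPKM in the mutant pool, the lowest of the set in both. Its log2 fold change was 0.29 (SE 0.636, q = 1.00 in the authors' deposited table), and its 95% interval, from 0.514-fold to 2.90-fold, was the widest of the tested genes.

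Ratios between genes of one sample are free of any factor that scales both. The ratio of Pln to Atp2a2 was 0.373 in control and 0.148 in mutant hearts, 2.52 times lower in the mutants. Sln to Atp2a2 was 0.00506 and 0.00562. Pln exceeded Sln 73.7 times in control and 26.4 times in mutant hearts. The ratios come from pooled values and carry no error, so the difference between the genotypes was not tested for any of them.

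The release channel and the junctional proteins were not called. Ryr2, the ryanodine receptor through which the store empties in the heart, stood at 14.2 FPKM in the control pool and 12.4 FPKM in the mutant pool (log2 fold change -0.20, SE 0.309). Jph2, junctophilin 2, which ties the store to the plasma membrane, stood at 73.7 and 64.4 FPKM (log2 fold change -0.19, SE 0.344). The ratio of Jph2 to Ryr2 was 5.18 in control and 5.19 in mutant hearts. Trdn, triadin, which anchors calsequestrin to the release channel, stood at 4.74 and 3.72 FPKM (log2 fold change -0.35, SE 0.320). All 3 had q = 1.00 in the authors' deposited table, and their 95% intervals together run from 0.508-fold to 1.39-fold. Trdn was counted on 1 transcript, where RefSeq GRCm38.p6 now lists 3 curated ones, so fragments of the other forms may not be in its value. Ryr2 lies on chromosome 13 from 11553103 to 12106945, Jph2 on chromosome 2 from 163336242 to 163397993 and Trdn on chromosome 10 from 33083483 to 33476709.

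Among the luminal calcium binding proteins, both calsequestrin genes had low mutant values and the histidine-rich protein gene did not. Calsequestrin buffers calcium inside the store beside the release channel, and Casq2 is the form of adult heart, while Casq1 is the form of fast skeletal muscle. Casq1 stood at 160.5 FPKM in the control pool and 82.2 FPKM in the mutant pool, the second highest level of the set in both genotypes. Its mutant level was 0.512 of control (unadjusted p = 0.00110, q = 0.153 in the authors' deposited table). The log2 fold change was -0.97 with an SE of 0.296 (95% interval -1.55 to -0.39). Casq2 stood at 5.59 FPKM in the control pool and 2.21 FPKM in the mutant pool. Its mutant level was 0.394 of control (unadjusted p = 0.000421, q = 0.0853 in the authors' deposited table). The log2 fold change was -1.34 with an SE of 0.381 (95% interval -2.09 to -0.60). The Casq2 fold is the lowest of the set, and its SE is wider than that of Pln. Casq2 too was counted on 1 transcript, where RefSeq now lists 2. Casq1 lies on chromosome 1 from 172209894 to 172219895 and Casq2 on chromosome 3 from 102086455 to 102146512.

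Hrc, the histidine-rich calcium binding protein of the store, which binds triadin and the pump, stood at 54.2 FPKM in the control pool and 57.3 FPKM in the mutant pool. The log2 fold change of Hrc was 0.08 with an SE of 0.299, an interval of -0.51 to 0.66 at the 95% level, and q = 1.00 in the authors' deposited table. It lies on chromosome 7 from 45335269 to 45338972. By FPKM, Hrc exceeded Casq2 9.69 times in control and 26.0 times in mutant hearts, while Trdn to Casq2 was 0.848 and 1.69. Protein in the store was not measured. Casq2 to Casq1 was 0.0349 and 0.0268. These ratios were not tested either.

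Slc8a1, the exchanger NCX1 of the plasma membrane, is the only listed gene outside the store membranes and their junctions. It stood at 55.0 FPKM in the control pool and 47.9 FPKM in the mutant pool. Slc8a1 was counted on 2 transcripts, where RefSeq now lists 4, so fragments of the other forms may not be in its value. The authors' test marked the entry as failed, as it did 96 entries in all, so it has no fold change, p or q, and it enters no count of tested genes. Slc8a1 lies on chromosome 17 from 81373105 to 81738377. Relative to the pump it read 0.159 in control and 0.126 in mutant hearts.

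**Figure D2:**
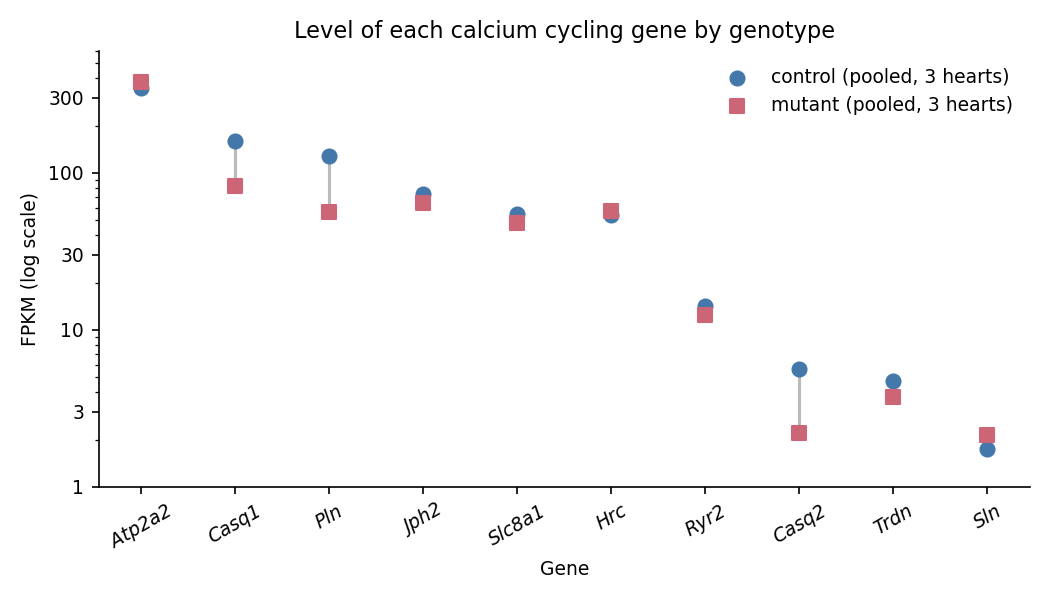
FPKM (log axis) of each calcium cycling gene in control (circles) and mutant (squares) hearts, ordered by the control level, with 1 pooled value per genotype and no error bars since values per heart are not in the table. Atp2a2 is highest in both genotypes and Sln lowest; the gap between the symbols is widest for Casq2, Pln and Casq1.

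The order of levels was much the same in both genotypes. In control hearts it ran from Atp2a2 through Casq1, Pln, Jph2, Slc8a1, Hrc, Ryr2, Casq2 and Trdn to Sln. In mutant hearts Jph2, at 64.4 FPKM, and Hrc, at 57.3 FPKM, stood above Pln, at 56.2 FPKM, and Trdn stood above Casq2. With no spread over hearts, neighbours of close level such as Slc8a1 and Hrc cannot be put in order.

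Within their gene families most of these genes were the main form by far, and calsequestrin was the exception. Atp2a2 made up 98.5% of the summed FPKM of the 3 SERCA genes in both genotypes. Ryr2 made up 96.7% of the 3 ryanodine receptor genes in control and 97.9% in mutant hearts, with the skeletal form Ryr1 at 0.0479 and 0.0788 FPKM. Jph2 made up 97.8% and 97.9% of the 4 junctophilin genes, and Slc8a1 97.6% and 97.7% of the 3 exchanger genes. Casq2, by contrast, made up 3.37% of the 2 calsequestrin genes in control and 2.61% in mutant hearts. Casq1 exceeded it 28.7 times in control and 37.3 times in mutant hearts.

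**Figure D3:**
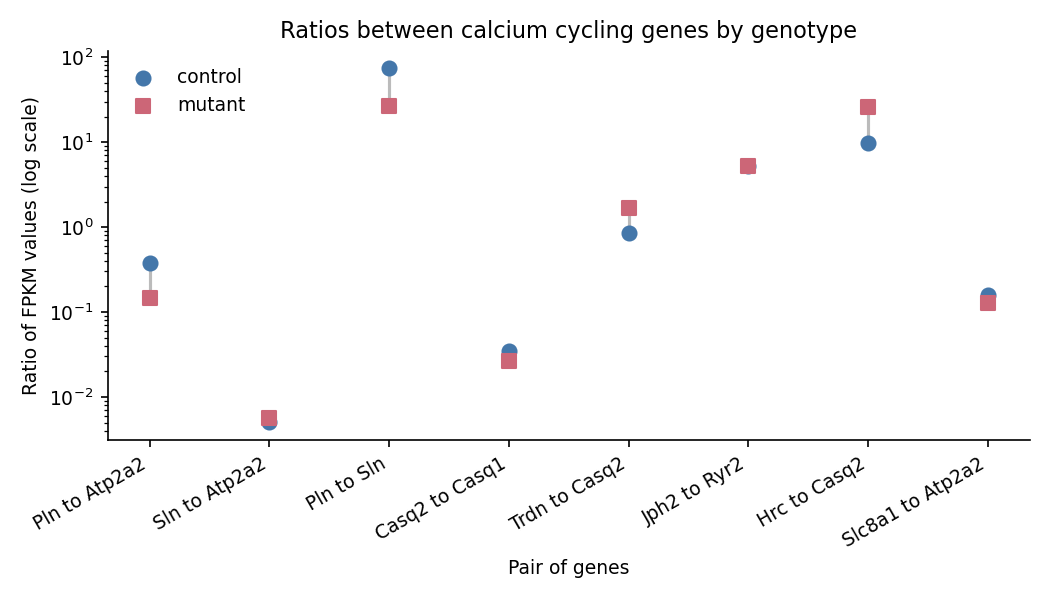
Ratio of the FPKM values of 8 pairs of calcium cycling genes (log axis) in control (circles) and mutant (squares) hearts. Pln to Atp2a2 goes from 0.373 to 0.148 and Hrc to Casq2 from 9.69 to 26.0, while Jph2 to Ryr2 has the same value within the symbol, 5.18 and 5.19.

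Other genes of cardiac calcium handling gave no calls. In 6 lists with 76 tested genes, 0 rose and 0 fell by the authors' q, and their median log2 fold change was -0.06. Over all 15387 tested entries 0.422% were called, a share at which lists of this size or smaller can hold no call. An unadjusted p under 0.05 was reached by 2 of the 76 genes, both lower. Over all tested entries those shares were 1.18% lower and 1.99% higher. One was Ryr3, a ryanodine receptor of brain and early muscle, at 0.438 and 0.192 FPKM (log2 fold change -1.19, SE 0.429, unadjusted p = 0.00561 in the authors' deposited table). The other was Cav3, caveolin of muscle, at 36.0 and 21.0 FPKM (log2 fold change -0.78, SE 0.319, unadjusted p = 0.0146 in the authors' deposited table). Ryr3 was picked out after its values had been seen.

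Of the other SERCA genes and store membrane proteins, 0 of 4 tested genes were called. Atp2a1, the fast skeletal pump, had 3.12 FPKM in controls and 4.36 FPKM in mutants, and Atp2a3, the pump of blood and endothelial cells, 2.18 and 1.32 FPKM. The store counter-ion channels Tmem38a and Tmem38b read 25.7 and 26.9 FPKM and 8.15 and 8.43 FPKM. Another 4 listed genes, for micropeptide regulators of the pump, had no entry under the names used and so have no values here. Among release channels and their partners, 0 of 12 tested genes were called and the median was -0.08. Fkbp1a, a subunit of the ryanodine receptor complex, read 366 and 348 FPKM, and the calmodulin gene Calm2 276 and 283 FPKM. Itpr1, an inositol trisphosphate receptor, had a log2 fold change of 0.35, and Asph, whose locus also encodes junctin, of -0.40. Among junctional and T-tubule genes 0 of 11 were called, with a median of -0.06. The luminal gene Srl, for sarcalumenin, read 67.9 and 67.4 FPKM, the T-tubule gene Tcap 69.5 and 57.8 FPKM, and the membrane-bending Bin1 10.9 and 15.3 FPKM.

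Calcium entry and exit at the plasma membrane gave 0 calls among 17 tested genes, with a median of -0.15. The calcium channel genes Cacna1d and Cacna1h had log2 fold changes of 0.56 and -0.35, the channel subunit gene Cacna2d2 read 29.6 and 28.1 FPKM, and the plasma membrane pump Atp2b1 14.4 and 18.0 FPKM. The list of beta-adrenergic, PKA, CaMKII and phosphatase genes, which set how far phospholamban is phosphorylated, gave 0 calls among 22 tested genes and a median of -0.03. Its most abundant members, the phosphatase genes Ppp1ca and Ppp2ca, read 363 and 370 FPKM and 157 and 155 FPKM, control first. Pde4d, a cAMP phosphodiesterase, and Ppp1r3a, a phosphatase targeting subunit of the store, had log2 fold changes of -0.44 and 0.36. In the general endoplasmic reticulum list, 0 of 10 tested genes were called, and all lay between -0.14 and 0.03. Calr, calreticulin, the calcium buffer of the endoplasmic reticulum in most cells and in embryonic heart, read 576 and 587 FPKM, and the chaperone Hspa5 562 and 537 FPKM. Sdf4 and Pdia4 read 24.4 and 22.7 FPKM and 154 and 140 FPKM, the last with an SE of 8.49.

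**Figure D4:**
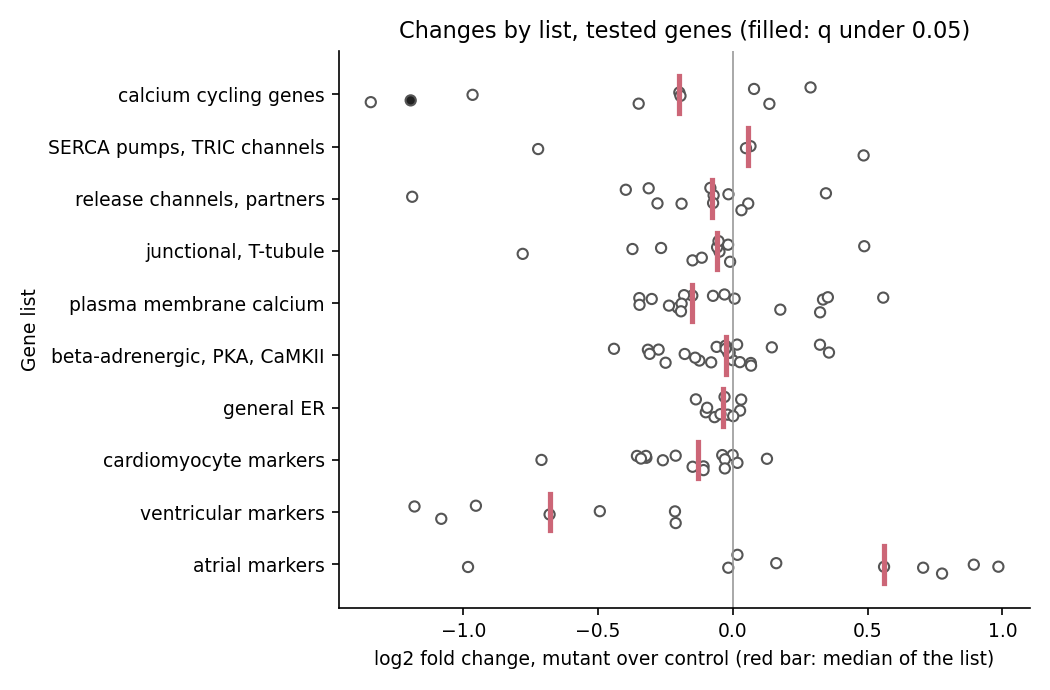
The log2 fold change (horizontal axis) of each tested gene in the calcium cycling set, the 6 other calcium lists and 3 marker lists, with vertical offsets only to separate points. Red bars are list medians; the filled point is Pln, the only called gene shown, and the ventricular markers all lie below 0 while 7 of 9 atrial markers lie above.

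Whole hearts were measured, so fewer cells of a type and less RNA per cell cannot be told apart. Of 19 cardiomyocyte markers 16 had a usable value, 0 were called, 14 lay below 0 and the median log2 fold change was -0.13. Their summed level was 16616 FPKM in the control pool and 15721 FPKM in the mutant pool. Against that median, Pln was lower by 2.09-fold, Casq2 by 2.32-fold and Casq1 by 1.79-fold. None of the 16 markers had a lower log2 fold change than any of these 3 genes. The 3 were picked as the lowest of the calcium cycling genes, so the ranking is a description only. Of the ventricular markers, Kcne1 and Cited1 lay below Casq1, though not below Pln or Casq2. Ryr2 and Jph2 were 1.05-fold lower than the median of the markers.

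Ventricular and atrial markers had opposite signs in most cases, without calls. All 7 ventricular markers lay below 0, with a median of -0.68, 4 at an unadjusted p under 0.05, and a summed level of 8250 FPKM in the control pool and 6133 FPKM in the mutant pool. They include Kcne1 (log2 fold change -1.18), Cited1 (-1.08), Irx4 (-0.95) and the light chain Myl2, at 5549 and 3942 FPKM. Of 9 atrial markers 7 lay above 0, with a median of 0.56 and a summed level of 10456 and 12105 FPKM. Myl4 of the atrial list and Myl3 of the ventricular list are also counted among the cardiomyocyte markers. Whether each marker is limited to its chamber at E10.5 was not tested. Nr2f1 (0.99), Stard10 (0.89), Kcna5 (0.78) and Nr2f2 (0.71) had an unadjusted p under 0.05, and Nppa (-0.98) went the other way. Against the ventricular median Pln was 1.43-fold lower, Casq2 1.58-fold and Casq1 1.22-fold. The part of a different balance of chambers in the low Pln and calsequestrin values was not tested.

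Beside Casq1, a skeletal muscle form, the markers of skeletal muscle went both ways, and the more abundant ones were mostly lower in the mutants. Of 12 markers 9 were tested, 1 rose and 0 fell. The one that rose, Myh3, encodes a myosin of embryonic muscle and went from 0.0165 to 0.213 FPKM. Their summed level was 108 FPKM in the control pool and 64.4 FPKM in the mutant pool. Fast fibre genes made up most of it, with the troponin gene Tnni2 at 51.5 and 26.1 FPKM and the light chain Mylpf at 39.5 and 22.9 FPKM (q = 0.355 and q = 0.974 in the authors' deposited table). The fast fibre genes Actn3, at 3.56 and 4.96 FPKM, and Tnnc2, at 0.440 and 0.690 FPKM, went the other way and were not called. Of 8 markers with a finite fold, 4 lay below 0 and 4 above. Also below 0 were Ckm, at 2.86 and 0.903 FPKM, and Tnnt3, at 10.3 and 7.91 FPKM. Their log2 fold changes were -1.66 (SE 0.547) and -0.38 (SE 1.70), and neither was called. Of those above 0, only Actn3 reached 1 FPKM in a pool. The 5 markers that reached it had a median of -0.78. An unadjusted p under 0.05 was found for 3 lower and 3 higher markers. The part of skeletal muscle cells in the Casq1 value was not tested. The myogenic factors Myod1 and Myog, which define skeletal muscle cells, were near 0 in control hearts, at 0.00423 and 0.00534 FPKM, and read 0.0316 and 0.416 FPKM in mutant hearts. The factor Myf5 was listed at 0 in the control pool and at 0.102 FPKM in the mutant pool (q = 0.411 in the authors' deposited table).

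Genes of other tissues also differed between the pools. In the foregut and pharyngeal epithelium list 6 of 8 tested markers rose, Epcam, Cdh1, Shh, Foxa1, Cldn6 and Pax1, and the summed level of the list went from 3.67 FPKM in control to 19.3 FPKM in mutant hearts. In the smooth muscle list 2 of 6 rose, Actg2 and Lmod1, by log2 fold changes of 2.49 and 1.78. The summed level of that list was 498 FPKM in controls and 909 FPKM in mutants, most of it from Tagln, at 333.3 and 766.5 FPKM, which was not called (q = 0.411 in the authors' deposited table). Cnn1, at 131.6 and 96.0 FPKM, and Smtn, at 27.0 and 23.9 FPKM, were not called either, and Acta2 had no usable value and is not in the sum. Endothelial, epicardial and erythroid markers gave 0 calls, with medians of -0.18, -0.05 and -0.02, and summed levels of 269 and 234 FPKM, 140 and 135 FPKM, and 303 and 320 FPKM. Neuronal markers gave 0 calls among 4 tested, and 1 of 3 tested macrophage markers fell, Lyz2. The part of these tissues in the calcium cycling values was not tested.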

How the data were processed

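Total RNA from single hearts was made into Illumina libraries with Tru-Seq adaptors, per the labels' protocols. The build mm10 and the tools Cuffdiff, Cufflinks 2.1.1, TopHat2 2.0.8, Bowtie2 2.1.0.0, FastQC 0.10.1 and SAMtools 0.1.19.0 are listed, without their roles, per the submitters' processing notes. Strand and scaling settings are not given in the sources used here. Per the file headers, the authors gave each gene 1 FPKM value for either genotype, over all its hearts. The authors deposited beside them a log2 fold change, a test statistic, p-values and q-values. FPKM keeps no counts, so the depth of the libraries is unknown and limits on counting error cannot be given.

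Entries were named through RefSeq GRCm38.p6 and GENCODE tables (99.3% named), and starts were moved to counting from 1. For a gene the tested entry with the highest mean FPKM is taken. For all 15301 finite folds a normal tail on both sides of the test statistic gave the deposited p within 1e-05, so the SE is the log2 fold change over the statistic, and intervals are 95%. The genes and lists were chosen with earlier results of these data known. All 10 genes are named; in each calcium list the called genes, or else the 2 highest and the 2 with the largest change at 1 FPKM or more. In the marker lists, whose full counts are given, the genes named were picked after their values had been seen. Alternatives covered the threshold, filters, pseudocounts and scaling. The calculation was run on data simulated from the same SEs, with planted changes larger than any of the calcium cycling genes. That checks the code, and neither the SE nor the calling of smaller changes. Python 3.11.15, numpy 2.4.6, pandas 2.3.3, scipy 1.17.1 and matplotlib 3.10.9 were used.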

Additional observations from a re-analysis of the deposited data

How the results depend on the processing

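The count of calcium cycling genes called lower, 1 with Pln, was 0 at q under 0.01 and 2 at q under 0.1, where Casq2 joins. It was 1 with the adjustment over entries of at least 1 FPKM (Pln q = 0.0204, Casq2 q = 0.101), with a minimum of 1 FPKM and with at least a 1.5-fold change. At an unadjusted p under 0.05, a setting chosen after seeing the data, it was 3, and the count over the 6 other calcium lists went from 0 to 2. The count called higher was 0 under each of these settings. The median log2 fold change ranged from -0.23 (equal FPKM sums) to -0.07 (centred on cardiomyocyte markers). All 54 values of single genes under pseudocounts of 0.1 and 1 FPKM, 3 scalings and summed entries kept their sign and moved by less than 1 implied SE. Most of that was fixed in advance. Each gene had 1 entry, so summing entries could not move a value. The 3 scalings shift all genes alike by constants, the largest from the cardiomyocyte marker median of -0.13, where the smallest SE was 0.296. Under the pseudocounts Casq2 moved the most, to -1.04 with 1 FPKM. No paired analysis was possible because the table holds no values per heart, and for the same reason no heart could be left out. A call rests on the change over its SE, so no single size marks what the test could call; Casq2 had a lower value than Pln, -1.34 against -1.20, and was not called.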
